A study of Prunus sibirica with 6 samples.

Results

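Among the transcription factors measured in flower buds of Siberian apricot (Prunus sibirica), 4 MADS-box transcript clusters had a best Swiss-Prot hit of the SVP, JOINTLESS or AGL42 type. The rule that chose them uses annotation and no expression value: the cluster had to belong to the MADS family of the deposited regulator table, and its Swiss-Prot hit had to name SVP, AGL24, SOC1, AGL42, AGL19, AGL14, FLC or JOINTLESS. The table held 1508 regulator clusters, of which 33 were MADS-box clusters. Of these, 2 were named SVP, 1 AGL42 and 1 JOINTLESS, while SOC1, AGL24, AGL19, AGL14 and FLC were the best Swiss-Prot hit of 0 clusters. The JOINTLESS cluster carries the gene name J and qualified through its description. RNA-seq libraries came from buds of a male sterile clone (No. 1, 3 libraries) and of a male fertile clone (No. 60, 3 libraries), both labelled as the microspore stage. Trees of 1 clone share 1 genotype, so each group is a single genotype, and sterility cannot be told apart from any other genetic difference between these clones. Buds were collected from July of 2018 to April of 2019, and the dates of the sequenced buds were not given in the sources used here, so a difference in calendar date or bud phase between the clones cannot be told apart from the clone.

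MADS-box proteins are DNA-binding factors that act as dimers and larger complexes. In Arabidopsis, SVP (Short Vegetative Phase) represses flowering by holding down floral integrator genes, among them SOC1, and later helps to specify the young floral meristem. JOINTLESS is the tomato relative of SVP and is required for the abscission zone of the flower stalk. In peach, a run of neighbouring SVP-type genes called Dormancy-Associated MADS-box (DAM) lies at the evergrowing locus, whose deletion leaves trees that do not enter bud dormancy. AGL42 (Forever Young Flower) belongs to the SOC1 group and promotes flowering and delays flower senescence and abscission in Arabidopsis.

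The JOINTLESS-type cluster (Cluster-6671.22485, 1588 bases) matched tomato JOINTLESS in Swiss-Prot with an E value of 7.3e-39. Its best nucleotide hit was a peach genomic clone of the evergrowing locus, and which of the genes at that locus it matched was not determined. No protein hit beyond Swiss-Prot was listed for it, unlike for the other 3 clusters. The first SVP cluster (Cluster-6671.590, 2150 bases) and the second (Cluster-6671.9196, 2267 bases) both matched Arabidopsis SVP, with E values of 2.3e-35 and 5.7e-45, but hit different Prunus mume genes, annotated SVP and SVP-like. They are called SVP and SVP-like below. The AGL42-type cluster (Cluster-6671.1562, 2940 bases) matched Arabidopsis AGL42 with an E value of 2.4e-19, AGL42-like of Prunus avium among proteins, and a SOC1-like mRNA of Prunus mume among nucleotide sequences. Its coding stretch was predicted by ESTScan and not taken from a protein match, as it was in the other 3 clusters. It covered 144 bases at the end of the cluster, 4.90% of the length. The length aligned to AGL42 was not given, so how much of the cluster this name rests on was not determined. In the other 3 clusters the coding match covered 39.6% to 45.0% of the length and was broken into 2 stretches in 2 reading frames, or into 3 stretches in 3 frames for SVP-like. The clusters are named without genome coordinates, so their chromosome and position were not determined.

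The regulator table held 1242099 to 1424835 estimated counts in the fertile and 957196 to 1122298 in the sterile libraries. Each of the 4 clusters had between 98 and 315 counts in every library. Of the flower bud markers sought, SEP1, FBP2, CMB1, DL and AGL11 were present at summed levels of 258 to 271 FPKM in fertile and 276 to 293 in sterile libraries. The members of this sum differed in both directions. Mean FPKM in fertile and sterile buds was 109 and 90.9 for FBP2, 114 and 113 for SEP1, 3.91 and 7.61 for CMB1, and 2.56 and 4.55 for AGL11. DL made up the rest of the sum, and its own level is not given here. The levels listed do not account for the higher sum in sterile libraries, which leaves DL higher there. AP3, PI, AG and AGL9 were not found as a gene name. The search was by exact name, so clusters named PMADS2 and AG1, described under other observations, were not counted. FPKM corrects the number of fragments for cluster length and for library size. The 7 anther marker clusters (AMS, bHLH10, MS1, MYB35 and MYB80) summed to 80.6 to 84.9 FPKM in fertile and 200 to 208 FPKM in sterile libraries, most of the difference being bHLH10, and MS1 was at or near 0 in the fertile ones. The vascular names NAC030 and ATHB-8 summed to 14.1 to 17.2 and 12.1 to 13.9 FPKM, but only 1 of these 2 clusters reached 1 FPKM in any library. The leaf factor GLK2 stood at 10.2 to 11.3 and 11.7 to 14.2 FPKM, and GLK1 was not found as a gene name. The part of these marker levels in the results below was not tested. Whole buds were sequenced, so fewer cells of a type and less RNA per cell cannot be told apart.

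Sterile against fertile buds asks how the RNA of these factors differs between the clones at the same labelled stage. The JOINTLESS-type, AGL42-type and SVP-like clusters were higher in the sterile buds and SVP was lower. Calls are from edgeR's quasi-likelihood test at an adjusted p of 0.05, scaled by TMM (trimmed mean of M-values) within the regulator table. All 4 clusters passed, 3 higher and 1 lower, in a table where 57.0% of 1380 tested clusters passed, 28.0% higher and 28.9% lower. FPKM did not overlap between the clones for any of the 4, which held for 68.6% of tested clusters, so a passing cluster is common here. Estimated counts did not overlap for 3 of the 4, against 59.7% of tested clusters. With implied whole-library totals all 4 passed again, against 62.6% (41.1% higher, 21.5% lower), and with limma on log2(FPKM + 1) over the table of all clusters all 4 passed, against 49.8% (29.1% higher, 20.7% lower). The submitters call the replicates biological but name no separate trees, so p-values measure the spread between bud samples of 1 clone per group.

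**Figure D1:**
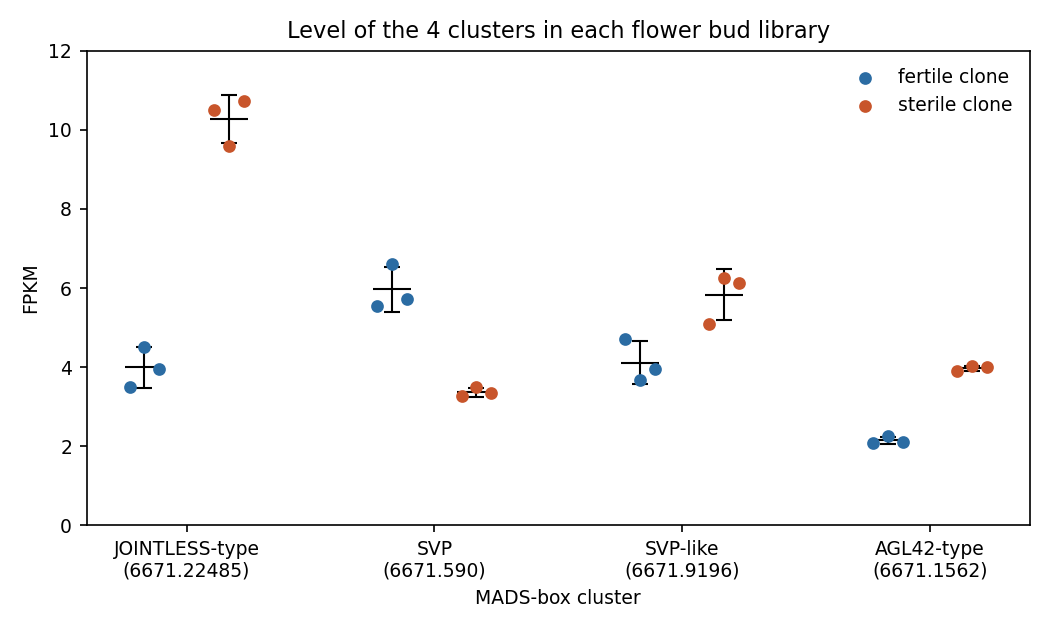
FPKM (vertical axis) of the 4 MADS-box clusters in the 3 fertile (blue) and 3 sterile (orange) libraries, points being libraries and bars the mean ± SD (n = 3). The sterile points lie above the fertile ones for the JOINTLESS-type, SVP-like and AGL42-type clusters and below them for SVP.

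The JOINTLESS-type cluster, the one that matched the peach dormancy locus, differed most. It stood at 3.50, 4.52 and 3.96 FPKM in fertile replicates 1 to 3 and at 10.5, 9.59 and 10.7 FPKM in sterile replicates 1 to 3. The lowest sterile library was above the highest fertile one by over 5 FPKM, and the raw counts did not overlap either (111 to 151 in fertile, 220 to 267 in the smaller sterile libraries). The means were 3.99 ± 0.511 and 10.3 ± 0.605 FPKM (SD, n = 3 each). By edgeR's fit the level was 2.31-fold higher in sterile buds, a log2 fold change of 1.21 ± 0.12 (SE, adjusted p = 1.28e-07). It was the only cluster of the 4 whose call also passed a change of at least 2-fold, which 13.4% of tested regulators did. Among 30 tested MADS-box clusters its absolute fold change ranked 5th, and among all 1380 it ranked 145th.

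SVP went the other way. It stood at 5.55, 6.62 and 5.72 FPKM in fertile replicates 1 to 3 and at 3.26, 3.49 and 3.35 FPKM in sterile replicates 1 to 3. All sterile libraries lay below all fertile ones, and the sterile libraries were close to each other (3.37 ± 0.116 FPKM, against 5.96 ± 0.575 in fertile, SD, n = 3 each). That closeness rests on 98 to 119 counts a library and is not a reliable measure of the spread. The log2 fold change was -0.97 ± 0.12 (SE, edgeR adjusted p = 1.57e-06), a level 1.96-fold higher in fertile buds. The value was -0.84 with implied whole-library totals, -0.80 with limma on log2(FPKM + 0.1) and -0.67 with limma on log2(FPKM + 1), a scale that differs from the edgeR fit in both library scaling and pseudocount.

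SVP-like differed least and its call was the least secure. It stood at 4.72, 3.68 and 3.95 FPKM in fertile replicates 1 to 3 and at 5.10, 6.26 and 6.14 FPKM in sterile replicates 1 to 3. The groups did not overlap in FPKM, yet fertile replicate 1 and sterile replicate 1 were close, and the estimated counts, uncorrected for library size, did overlap (174 to 227 and 163 to 232). The means were 4.12 ± 0.540 and 5.83 ± 0.638 FPKM (SD, n = 3 each), and the log2 fold change was 0.36 ± 0.13 (SE, edgeR adjusted p = 0.0236), or 1.28-fold. The call was lost without fertile replicate 2 (log2 fold change 0.27, edgeR adjusted p = 0.101), fertile replicate 3 (0.32, 0.0753), sterile replicate 2 (0.28, 0.129) or sterile replicate 3 (0.30, 0.12). Without fertile replicate 1 it was 0.49, and its adjusted p over all alternatives ran from 0.000129 to 0.129.

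The AGL42-type cluster, the one of the SOC1 group, was low in both clones, and its libraries within each clone were close to each other. It stood at 2.08, 2.25 and 2.11 FPKM in fertile replicates 1 to 3 and at 3.89, 4.02 and 4.0 FPKM in sterile replicates 1 to 3. The spread within a clone was under 0.1 FPKM (SD 0.0907 and 0.070, n = 3 each), against a difference between the means of 2.15 and 3.97 FPKM. The counts also lay apart, at 124 to 152 in fertile and 167 to 202 in sterile libraries. With 3 libraries at such counts, the closeness within a clone is not a reliable measure of the spread. The log2 fold change was 0.74 ± 0.11 (SE, edgeR adjusted p = 2.38e-05), or 1.67-fold.

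The pair of SVP clusters shifted in opposite directions, so their mixture differed more than their sum. SVP-like took 47.5%, 37.1% and 42.3% of the counts of both SVP clusters in fertile replicates 1 to 3 and 62.5%, 65.7% and 66.1% in sterile replicates 1 to 3. The fertile library nearest to the sterile ones, replicate 1, had a 95% Wilson interval of 43.1% to 52.0%, and the nearest sterile library, replicate 1, one of 56.4% to 68.1%; these intervals cover counting error only. SVP-like was thus the smaller of the pair in every fertile library and the larger in every sterile one. The log2 ratio of SVP-like to SVP was higher in sterile buds by 1.33, and a two-sided exact permutation test over libraries gave p = 0.1, the smallest value that 3 against 3 libraries allow. This ratio is taken within a library and does not depend on library scale.

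Reads that match several clusters are divided by programs such as RSEM, which is named in the submitters' processing notes. Estimated counts were not whole, within a tolerance of 0.005, in 5 of 6 libraries for SVP and in 2 of 6 for SVP-like, and were whole in all 6 for the JOINTLESS-type and AGL42-type clusters. Added together, the SVP clusters stood at 10.3, 10.3 and 9.67 FPKM in fertile and 8.36, 9.75 and 9.49 FPKM in sterile libraries. These sums overlapped between the clones. In edgeR's fit the summed counts were lower in sterile buds by a small margin (log2 fold change -0.26 ± 0.09, SE, adjusted p = 0.0202), and the call was lost with column totals (-0.21, adjusted p = 0.0516), with whole-library totals implied by counts and FPKM (-0.12, adjusted p = 0.225), and without sterile replicate 1 (-0.17, adjusted p = 0.133). With the JOINTLESS-type cluster included, the 3 SVP-type clusters summed to 14.1 ± 0.650 FPKM in fertile and 19.5 ± 0.70 in sterile buds (SD, n = 3 each), with no overlap. The JOINTLESS-type cluster made up 25.4% to 30.5% of that sum in fertile and 49.6% to 55.6% in sterile libraries.

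**Figure D2:**
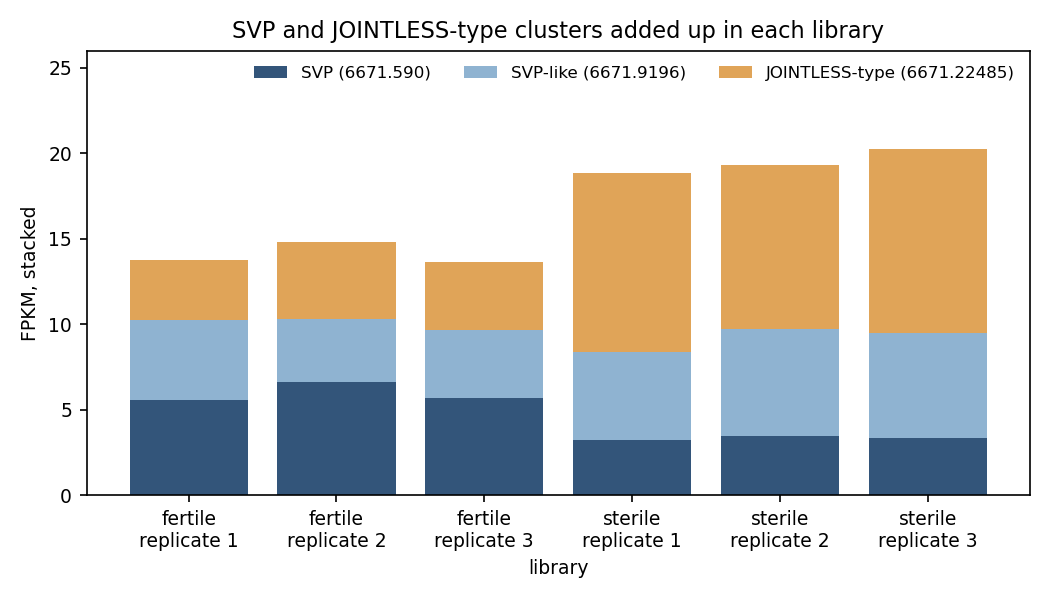
FPKM of SVP (dark blue), SVP-like (light blue) and the JOINTLESS-type cluster (orange) stacked for each library (horizontal axis). The stacks reach 13.6 to 14.8 FPKM in fertile and 18.9 to 20.2 FPKM in sterile libraries, and the JOINTLESS-type part is larger in every sterile library than in any fertile one.

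The order of levels among the 4 clusters differed between the clones. In fertile buds SVP stood highest, SVP-like and the JOINTLESS-type cluster followed with overlapping ranges (3.68 to 4.72 and 3.50 to 4.52 FPKM), and the AGL42-type cluster stood lowest. In sterile buds the JOINTLESS-type cluster stood highest, then SVP-like, then the AGL42-type cluster, and SVP was lowest, with no overlap between neighbours. The FPKM ratio of the JOINTLESS-type cluster to SVP was 0.631, 0.683 and 0.692 in fertile and 3.22, 2.75 and 3.21 in sterile replicates 1 to 3. The ratio of the AGL42-type cluster to SVP was 0.340 to 0.375 in fertile and 1.15 to 1.19 in sterile libraries. Both ratios crossed 1 between the clones. Ratios did not overlap between the clones in any of the 6 pairs of these clusters, and did not overlap in 65.2% of all pairs of tested regulators.

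In the authors' deposited table the log2 fold change of sterile over fertile buds was 1.28 for the JOINTLESS-type cluster, 0.81 for the AGL42-type cluster, 0.43 for SVP-like and -0.90 for SVP. The q-values in the authors' deposited table were 7.0423e-13, 1.522e-05, 0.046552 and 1.1253e-06 in the same order, and 44.9% of all clusters in the authors' deposited table had a q-value below 0.05. The authors' deposited table marks the JOINTLESS-type cluster as up and the other 3 as neither up nor down. Among 1508 clusters the authors' deposited table marks 12.4% up or down, none of them with an absolute log2 fold change below 1.0026.

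Of the other 29 MADS-box clusters 26 were tested, 11 were higher in sterile buds, 5 lower and 10 not called, beside 28.0% higher and 28.9% lower over all tested regulators. Their median log2 fold change was 0.19 against 0.01 over all 1380 tested regulators. With the implied whole-library totals 12 of the 26 were higher and 4 lower (median 0.33). All tested regulators then gave 41.1% higher and 21.5% lower, with a median of 0.15. A cluster (Cluster-6671.11868) matching CAULIFLOWER A of Prunus avium, a relative of the floral meristem genes that SVP and SOC1 proteins work with in Arabidopsis, stood at 31.3 ± 1.73 FPKM in fertile and 51.4 ± 2.53 in sterile buds (SD, n = 3 each; log2 fold change 0.57 ± 0.07, SE, edgeR adjusted p = 2.45e-06). The other clusters that led by p were all named AGL82, a little-studied MADS-box gene. One (Cluster-244.0) had 0 counts in all fertile libraries and 82 over the sterile ones, another (Cluster-6671.22002) had 3 and 211, and the last (Cluster-6671.14176) was lower in sterile buds (log2 fold change -1.49 ± 0.20, SE, edgeR adjusted p = 5.31e-06).

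**Figure D3:**
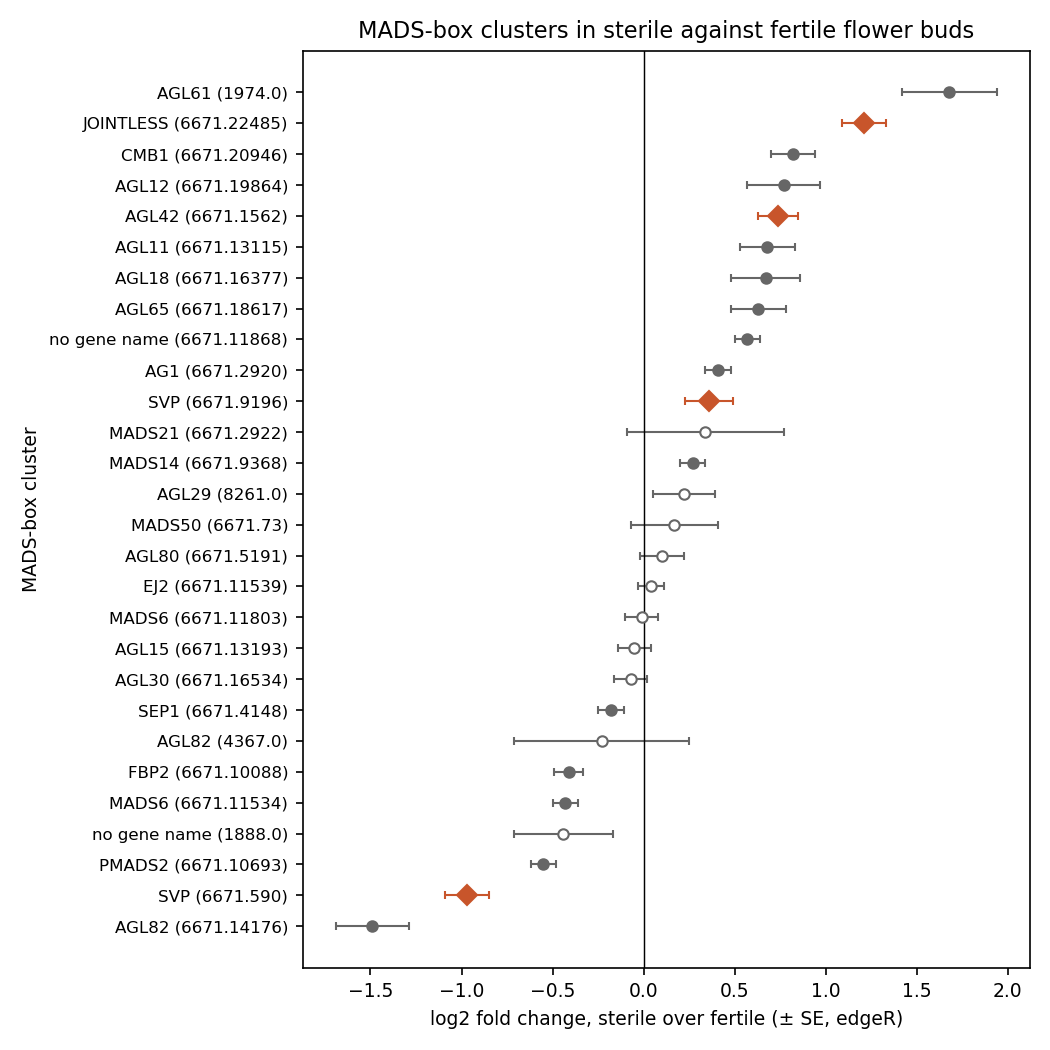
Log2 fold change, sterile over fertile, with SE from edgeR (horizontal axis) for tested MADS-box clusters, the SVP, JOINTLESS and AGL42 types as orange diamonds, filled where the adjusted p was below 0.05. AGL82 clusters Cluster-244.0 and Cluster-6671.22002, at or near 0 in fertile buds, are left off; JOINTLESS stands at 1.21 and SVP (Cluster-6671.590) at -0.97.

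Among MADS-box clusters, 2 had a related name in another database but not in Swiss-Prot, and were picked for this after their values were seen. One (Cluster-6671.73) is named AGL19 by its protein hit, and its Swiss-Prot hit is rice MADS50, a SOC1 relative that promotes flowering in rice. It stood at 1.92, 1.69 and 1.70 FPKM in fertile and 2.79, 1.63 and 2.28 FPKM in sterile replicates 1 to 3. These ranges overlapped, and the cluster was not called (log2 fold change 0.17 ± 0.24, SE, edgeR adjusted p = 0.585). The other (Cluster-8261.0) matched a FLOWERING LOCUS C-like mRNA of Prunus mume but AGL29 in Swiss-Prot. It stood at 3.05 ± 0.124 FPKM in fertile and 3.97 ± 0.447 in sterile buds (SD, n = 3 each) and was not called either (log2 fold change 0.22 ± 0.17, SE, edgeR adjusted p = 0.305).

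Flowering time regulators outside the MADS family act beside these factors. A list of 44 clusters was taken by gene or family names linked to the photoperiod, age, vernalization and autonomous pathways. Over all tested regulators 28.0% were higher and 28.9% lower, with a median log2 fold change of 0.01. Of the list, 40 were tested, 11 were higher in sterile buds, 9 lower and 20 not called (median 0.08). With the implied whole-library totals, which shift the median of all tested regulators to 0.15, this became 22 higher and 7 lower, with a list median of 0.22, beside 41.1% higher and 21.5% lower over all tested regulators. Of 9 CONSTANS-like clusters (COL, zinc-finger factors of light and day length response) 5 were higher and 1 lower, or 8 and 1 with the implied totals, read against the same shares. COL6 (log2 fold change 0.99), COL13 (0.75) and COL16 (0.56) rose most, and COL1, at under 1 FPKM, fell (-1.09). Of 5 clusters of cycling Dof factors, which repress CONSTANS in Arabidopsis, 3 were higher and 1 lower, or 4 and 0 with the implied totals. The one named CDF2 (Cluster-6671.7429) stood at 3.54 ± 0.486 FPKM in fertile and 8.50 ± 0.815 in sterile buds (SD, n = 3 each; log2 fold change 1.12 ± 0.11, SE, edgeR adjusted p = 2.26e-07).

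TEM1 (Cluster-6671.11600), whose Arabidopsis namesake represses the florigen gene FT, stood at 62.2 ± 2.20 FPKM in fertile and 40.3 ± 2.22 in sterile buds (SD, n = 3 each; log2 fold change -0.78 ± 0.07, SE, edgeR adjusted p = 2.9e-08), and its protein hit is RAV1 of Prunus mume. VRN1, a B3-domain factor needed for the stable vernalization response of Arabidopsis, named 10 clusters, of which 6 were tested, 3 were lower and 1 higher (Cluster-897.1, under 1 FPKM, log2 fold change 0.86), with the same counts under the implied totals. The VRN1 cluster that differed most (Cluster-6671.1231) stood at 17.2 ± 0.408 FPKM in fertile and 4.92 ± 0.331 in sterile buds (log2 fold change -1.96 ± 0.10, edgeR adjusted p = 1.58e-11). Another (Cluster-6671.3682) stood at 8.16 ± 0.403 and 4.36 ± 0.215 FPKM (log2 fold change -1.05 ± 0.09, edgeR adjusted p = 2.22e-08). The 12 SPL clusters were taken by family name, whether or not a member acts in the age pathway. Of these, 1 was higher (SPL12), 3 were lower (named SPL6 or SPL8) and 8 were not called. The implied totals gave 5 higher and 2 lower. Shares over all tested regulators were 28.0% higher and 28.9% lower, or 41.1% and 21.5% with the implied totals. The balance of this group thus turned with the scaling, as did that of the whole table. The VRN1 counts are read against the same shares.

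Cold and abscisic acid regulators act around bud dormancy in woody plants. Of 16 clusters 14 were tested, 6 were higher in sterile buds, 4 lower and 4 not called (median log2 fold change 0.22). Over all tested regulators 28.0% were higher and 28.9% lower, with a median of 0.01. With the implied whole-library totals 6 of the 14 were higher and 3 lower (median 0.36). The shares over all tested regulators were then 41.1% higher and 21.5% lower, with a median of 0.15. DREB3 names clusters in both directions: Cluster-6671.897 stood at 45.9 ± 3.33 FPKM in fertile and 14.7 ± 0.261 in sterile buds (SD, n = 3 each; log2 fold change -1.79 ± 0.08, SE, edgeR adjusted p = 3.29e-12), and Cluster-6671.21319 at 4.14 ± 0.831 and 9.03 ± 0.821 FPKM (0.96 ± 0.15, adjusted p = 2.75e-05). ABI5 (Cluster-3092.0), a bZIP factor of the abscisic acid response, stood at 2.68 ± 0.333 and 5.66 ± 0.172 FPKM (0.93 ± 0.13, edgeR adjusted p = 1.17e-05). DREB2B (Cluster-6671.3173) stood at 0.687 ± 0.315 and 3.62 ± 0.284 FPKM (2.24 ± 0.23, edgeR adjusted p = 2.13e-07). Its Prunus protein and nucleotide hits were uncharacterized genes. The protein hit of Cluster-6671.897 was TINY of Prunus persica, while its nucleotide hit was DREB3 of Prunus mume. The nucleotide hit of Cluster-6671.21319 was ERF039 of Prunus mume. The C-repeat factors of the DREB1 type, which bind cold-responsive promoters, were near the detection limit: of 3 clusters, at 0.310 to 1.45 FPKM in either clone, 1 was tested and it was not called.

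**Figure D4:**
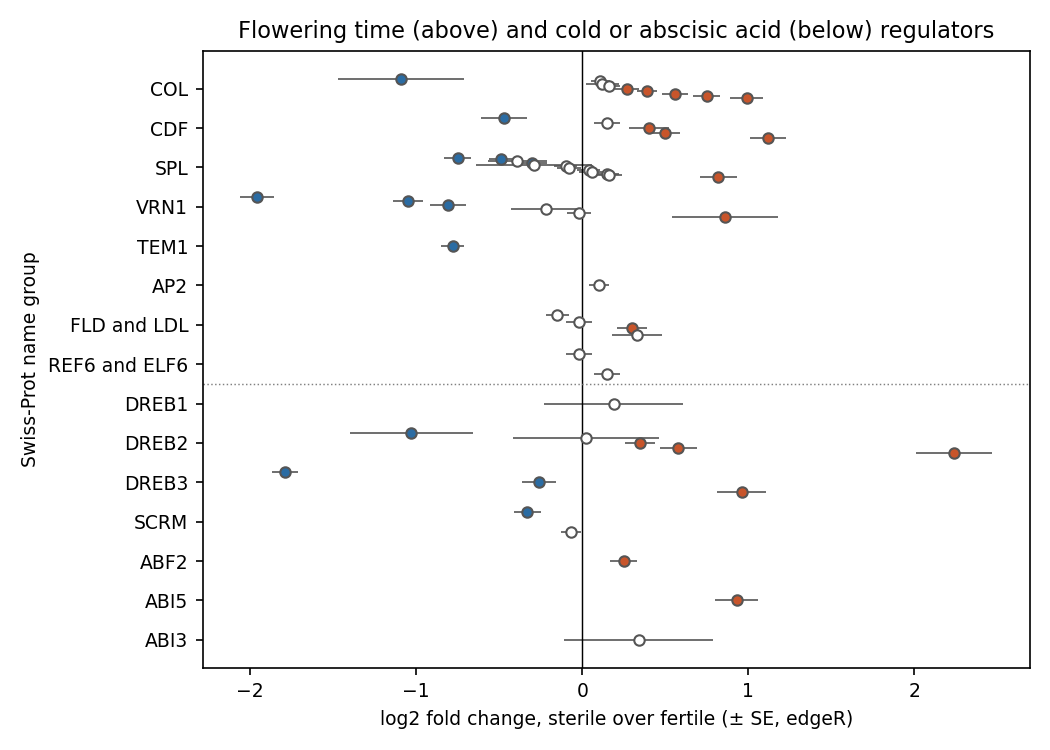
Log2 fold change, sterile over fertile, with SE from edgeR (horizontal axis) for tested flowering time regulators (above the dotted line) and cold or abscisic acid regulators (below it), grouped by Swiss-Prot name; orange points are called higher, blue called lower and white not called. COL and CDF points lie mostly at positive values, and VRN1 and DREB3 points lie on both sides of 0.

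The regulators whose profile over the 6 libraries was most like each name's most abundant cluster were found by the Euclidean distance between centred log2(FPKM + 1) values, among 1255 named clusters with a mean of at least 1 FPKM. For the AGL42-type cluster these were the homeobox gene KNAT6 (distance 0.0534, at a mean of 2.97 FPKM in fertile and 5.34 FPKM in sterile buds), KTI12 (0.0977) and the bZIP factor TGA4 (0.0982). For SVP-like they were the homeodomain-leucine zipper genes HAT14 (distance 0.07) and ATHB-12 (0.179) and a CCCH zinc finger (0.185). For the JOINTLESS-type cluster the nearest were farther off, HSF30 at 0.25, RAP2-4 at 0.261 and HAC12 at 0.278. A low distance here reflects the difference between the clones as much as the variation within them.

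**Figure D5:**
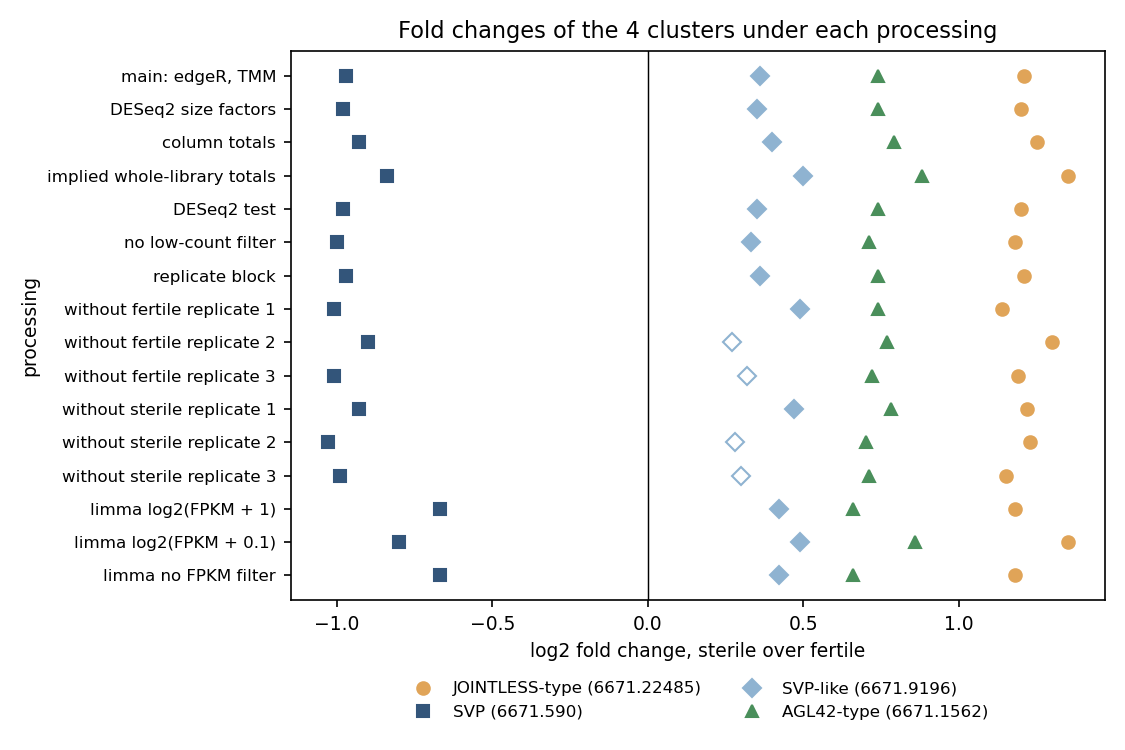
Log2 fold change, sterile over fertile (horizontal axis), of the 4 clusters under each processing (vertical axis), filled where the adjusted p was below 0.05 and open where it was not. SVP stays between -1.03 and -0.67, SVP-like between 0.27 and 0.50 with 4 open points, the AGL42-type cluster between 0.66 and 0.88 and the JOINTLESS-type cluster between 1.14 and 1.35.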

How the data were processed

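RNA-seq libraries of 3 male fertile and 3 male sterile flower bud samples were compared. For 1508 regulators the authors deposited estimated counts, FPKM, annotation, their log2 fold change and their q-value, per the file headers, and for 34377 clusters FPKM alone. The submitters' processing notes list CASAVA, RSEM and Bowtie2, with no version. The assembler and the authors' test were not given in the sources used here.

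Clusters listed under several families were used once. Rounded estimated counts went into edgeR 4.0.16 under R 4.3.3. Its filterByExpr removed 128 clusters, TMM scaled the libraries, glmQLFit (robust) and glmQLFTest gave p-values, adjusted by Benjamini-Hochberg over all 1380 clusters tested. Each SE is the absolute log2 fold change over the root of F. The table of all clusters went into limma 3.58.1, with trend and robust options, as log2(FPKM + 1), keeping clusters that reached 1 FPKM in 3 or more libraries; 49.8% of 21730 clusters passed. DESeq2 1.42.0 was an alternative. Implied whole-library totals (slope of count over FPKM on cluster length, for clusters from 5 FPKM and 50 counts up) were 22.1 to 25.3 M fragments in fertile and 16.2 to 19.0 M in sterile libraries. Scripts were tested on simulated data.

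The members, lists and rules were chosen with earlier results of these data known. All 4 members were named, with the 4 clusters of smallest p and at least 1 FPKM from each of 3 name lists; COL6, COL13, COL16, COL1 and the clusters below in other observations were chosen after their values were seen. No sequences were analysed here.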

Additional observations from a re-analysis of the deposited data

How the results depend on the processing

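Across 15 other processings the 4 clusters kept their direction, and the JOINTLESS-type, AGL42-type and SVP clusters kept their calls in each of them. SVP-like lost its call in 4, each with a library left out. The number of these clusters called was 3 to 4 with a library left out, and 1 with a minimum change of 2-fold, an alternative chosen after seeing the data; without the JOINTLESS cluster, likewise chosen later, it was 3 of 3. The summed SVP clusters stood at -0.21 with column totals, -0.12 with implied whole-library totals, -0.12 with limma on log2(FPKM + 1) with or without the filter and -0.13 with a pseudocount of 0.1, all not called, and at -0.33 to -0.17 with a library left out. Flowering time regulators called higher numbered 22 with the implied totals and 9 to 17 with a library left out, against 11. Cold and abscisic acid regulators called lower numbered 2 with a pseudocount of 0.1, against 4. Of all tested regulators 387 were called higher and 399 lower; with the implied totals these were 567 and 297, and called lower were 249 with limma on log2(FPKM + 1), 248 with a pseudocount of 0.1 and 249 without the filter. The cause of these shifts was not tested. Replicate numbers did not pair the libraries (correlations of same-numbered deviations of 0.00 to 0.02), and with a replicate block 4 of 4 clusters were still called, with 389 higher and 392 lower over the table. Counts of 98 to 315 a library limit the precision of each value.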

Other observations

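Other MADS-box clusters related to flowering control differed in part, and were chosen after their values were seen. AGL15 and AGL18 repress flowering together with SVP in Arabidopsis. The AGL18 cluster (Cluster-6671.16377) stood at 3.17 ± 0.271 FPKM in fertile and 5.62 ± 1.27 in sterile buds (SD, n = 3 each), a log2 fold change of 0.67 ± 0.19 (SE, edgeR adjusted p = 0.00577). The AGL15 cluster (Cluster-6671.13193) stood at 7.31 ± 0.474 and 7.82 ± 0.429 FPKM and was not called (-0.05 ± 0.09, edgeR adjusted p = 0.698). A cluster named PMADS2 (Cluster-6671.10693), a petunia gene of petal and stamen identity, was among the most abundant MADS-box clusters, at 127 ± 4.58 FPKM in fertile and 96.2 ± 9.63 in sterile buds, and was lower (-0.55 ± 0.07, edgeR adjusted p = 6.43e-06). A cluster named AG1 (Cluster-6671.2920), for tobacco AGAMOUS, with a PLENA-like peach gene as nucleotide hit, stood at 22.3 ± 1.09 and 32.9 ± 1.66 FPKM and was higher (0.41 ± 0.07, edgeR adjusted p = 8.51e-05).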
